A study of Mus musculus with 2 samples.

Results

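Ovol1, Grhl1, Grhl3, Trp63, Gata3 and Prdm1 encode transcription factors that maintain basal keratinocytes of the epidermis or steer them towards the cornified surface. All probes whose symbol in the platform annotation is that of any of these 6 genes were taken, which gave 8 of the 23978 probes with a gene symbol, and 6 of 16593 genes. Ovol1, Grhl3, Trp63 and Gata3 had 1 probe each, and Grhl1 and Prdm1 had 2 each. Expression was measured on 2 Illumina bead arrays, 1 for each genotype. The CON array held RNA of MED1 fl/fl C57BL6 mice without Cre, and the Med1cKO array held RNA of MED1 fl/fl mice with Cre under the Krt14 promoter, which is active in basal keratinocytes and the outer root sheath of the hair follicle. Both genotypes therefore carry the floxed allele, and the controls were littermates. For each genotype, keratinocytes of 3 mice were combined, and the cells positive for integrin alpha6 (a6) and negative for CD34 were sorted. Other protocol fields of these samples speak of RNA from whole skin of single mice, and the labels state no age.

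Each genotype was thus 1 pool on 1 array. Replicate error could not be measured and no difference was tested, so every value below compares these 2 pools. A probe was called detected when its detection p-value, a comparison with negative control beads of the same array, was below 0.01. By this rule the CON array detected 40.8% and the Med1cKO array 42.7% of 25697 probes. Intensities were background-corrected and normalized to log2 levels, and a log2 ratio is the Med1cKO level minus the CON level. Med1, a Mediator subunit and the targeted gene, had intensities of 794 in CON and 452 in Med1cKO at its brightest probe, a log2 ratio of -0.997. Another Med1 probe had 294 and 225 (-0.82). A dimmer one, detected in CON only, had 289 and 191 and was at least 1.82-fold lower in Med1cKO. The dimmest was not detected on either array. Which exons were deleted is not stated in the labels, so these probes do not check the deletion. All 6 basal keratinocyte markers were detected on both arrays (Krt14 intensities of 37038 and 38429), and so were all 6 suprabasal markers (Krt10 intensities of 34754 and 34901), although the sort was for basal cells. Krt14 was the 1 basal marker with a log2 ratio above 0. The other 5 were below 0, with Krt5 at 24661 in CON and 17605 in Med1cKO (-0.48).

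These factors act at different stages. Trp63 (p63) is the master regulator of stratified epithelia and maintains basal cells. Ovol1 is a zinc finger repressor that in mouse epidermis restrains proliferation as progenitors begin to differentiate, and the Grainyhead-like factors Grhl1 and Grhl3 activate genes of cell junctions and the barrier. Gata3 is needed for the epidermal barrier and the inner root sheath of the hair follicle, and Prdm1 (Blimp1) acts in the granular layer and in sebaceous gland cells. Gata3 and Prdm1 also have well-known roles in lymphocytes.

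Regulatory sequence was available for Grhl1, Grhl3, Gata3 and Prdm1 as RefSeq promoter windows of build GRCm38.p6, each of 250 bases before and 50 bases after a transcript start (5 windows, since Grhl1 has 2 starts). The windows were searched on both strands for the Grainyhead motif AACCGGTT and its looser form AACCNGTT (any base in the middle), the Ovo motif CCGTTA, the GATA motif AGATAA, the Prdm1 motif GAAAGT, the AP-1 motif TGANTCA, and the p53 family motif of CATG half-sites 6 bases apart. AACCNGTT includes all matches of AACCGGTT. No window of Grhl1, Grhl3 or Gata3 held any of these letters, and the Prdm1 window held the AP-1 motif only. Among all 32851 promoter windows, AACCGGTT was found in 0.146%, AACCNGTT in 2.09%, CCGTTA in 2.76%, the p53 family motif in 0.712%, AGATAA in 11.2%, GAAAGT in 14.3% and TGANTCA in 7.81%. A match is a description of letters and not a binding site. The 250 bases before the Grhl3 start are shown because Grhl3 is the member with a window whose level differed most between the pools (chr4:135573633-135573882, minus strand), and they hold no capitals because no motif matched. The Prdm1 stretch is shown for its AP-1 match in capitals, which begins 48 bases before the start (chr10:44458764-44458823, minus strand).
Grhl3: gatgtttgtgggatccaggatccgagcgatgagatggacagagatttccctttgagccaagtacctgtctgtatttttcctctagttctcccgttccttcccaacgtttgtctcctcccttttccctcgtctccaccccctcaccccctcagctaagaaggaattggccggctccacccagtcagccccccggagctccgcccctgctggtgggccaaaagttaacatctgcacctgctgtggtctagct
Prdm1: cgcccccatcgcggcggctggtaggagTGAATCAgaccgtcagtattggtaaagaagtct

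Ovol1 had by far the widest gap between the pools. Its intensity was 479 in CON and 4278 in Med1cKO, and it was detected on both arrays. After background correction its level was 13.2-fold higher in the Med1cKO pool (log2 ratio 3.72). Of 7182 genes detected on both arrays, Ovol1 had the third highest ratio (rank 3). The ratio was 10.7 times the robust SD of log2 ratios among genes of similar level (0.35), an SD that describes genes rather than replicates. The ratio depended in size on the background correction, and without it Ovol1 was 9.25-fold higher. In the normalized values that the authors deposited, Ovol1 stood at 508 in CON and 4711 in Med1cKO, 9.27-fold apart. Among genes detected on both arrays, the 3 whose log2 ratio was nearest to that of Ovol1 were Fa2h, a fatty acid hydroxylase of ceramide synthesis (3.83), Ces1d, a carboxylesterase (3.06), and Stfa1, a stefin A protease inhibitor (4.45). These 3 held ranks 2, 4 and 1, so they are the neighbours of Ovol1 at the top of the ranking. Their folds of 14.2, 8.32 and 21.9 were not all close to that of Ovol1. With only 2 arrays, nearness in ratio means nothing more than that.

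**Figure D1:**
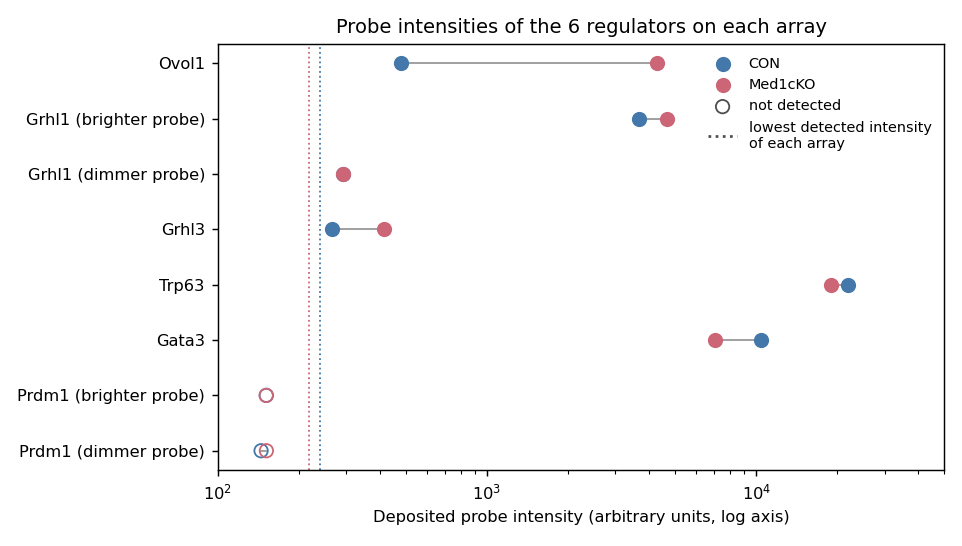
Deposited intensity (log axis) of each probe of the 6 regulators on the CON and Med1cKO arrays, 1 array each. Filled points are detected probes, open points are probes not detected, and dotted lines mark the lowest detected intensity of each array (239 for CON and 219 for Med1cKO). Ovol1 moves from 479 to 4278, while Trp63 and Gata3 lie at lower intensity in Med1cKO and both Prdm1 probes lie left of the lines.

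The 2 Grainyhead-like members were higher in the Med1cKO pool by unequal amounts. Grhl3, which is required for barrier formation and wound closure in mouse skin, had intensities of 265 in CON and 415 in Med1cKO. Its CON value lay close to the lowest detected intensity of that array (239). Its level was 2.46-fold higher in Med1cKO (log2 ratio 1.30), which was 2.56 times the robust SD at that level (0.51), but 1.62-fold higher without background correction and 1.65-fold in the authors' normalized values. Grhl3 therefore passed a 2-fold difference only where the background was subtracted. Grhl1, an activator of desmosomal genes, had intensities of 3662 in CON and 4662 in Med1cKO at its brighter probe, 1.33-fold higher (log2 ratio 0.42, robust SD of similar genes 0.29). At its dimmer probe the intensities were 291 and 293 (log2 ratio 0.12). The Grhl1 probes thus differed in size, and neither approached 2-fold.

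Trp63 and Gata3 pointed the other way, and neither differed 2-fold. Trp63 was one of the bright probes of the array, reading 21956 in CON against 19018 in Med1cKO. Its level was 1.13-fold lower in Med1cKO (log2 ratio -0.18), less than the robust SD at that level (0.23). A single probe reads this gene, and which of the p63 isoforms it covers is not stated in the files. Gata3 had intensities of 10418 in CON and 7027 in Med1cKO, 1.495-fold lower (log2 ratio -0.58), or 2.49 times the same robust SD. At such brightness the background correction mattered little, and without it Gata3 was 1.485-fold lower and Trp63 1.13-fold lower.

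Prdm1 was not detected on either array. Its brighter probe had intensities of 151.7 in CON and 151.5 in Med1cKO (detection p-values of 0.81 and 0.76), and its dimmer probe 145.1 and 151.8 (0.94 and 0.75). No fold is given, since all values lay below the lowest detected intensity of their array. This says that Prdm1 transcript was not detectable with these probes, not that it was absent.

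Of the 5 detected regulators, Ovol1 and Grhl3 were at least 2-fold higher in the Med1cKO pool and none was at least 2-fold lower. Among all 7955 detected genes, 3.95% were higher by 2-fold or more and 1.81% were lower by 2-fold or more. The genes were assembled with earlier results of these arrays known, so this count is a description. Their median log2 ratio was 0.42, beside -0.04 for all detected genes, with 3 above 0 and 2 below. Levels of different genes are not ranked here, because probes differ in how brightly they report the same amount of RNA.

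**Figure D2:**
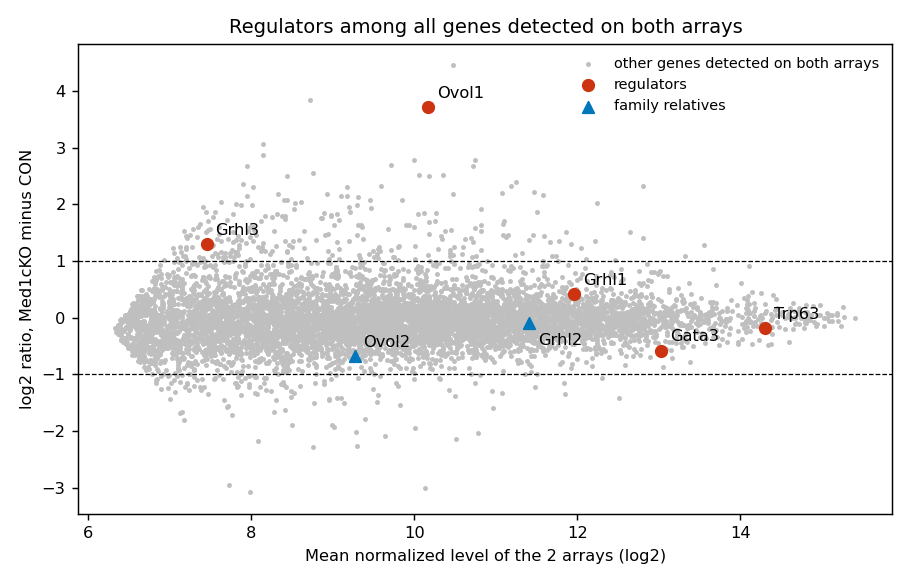
Log2 ratio (Med1cKO minus CON) against the mean normalized log2 level of the 2 arrays, 1 point per gene, for 7182 genes detected on both arrays. Dashed lines mark 2-fold. Ovol1 (3.72) stands above nearly all genes, Grhl3 (1.30) lies above the upper line at a dim level, and Grhl1, Trp63, Gata3 and the relatives Ovol2 and Grhl2 lie between the lines.

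Direction was kept by all 5 detected regulators in the 6 alternative settings that could change a ratio. Of these settings, the mean over detected probes could change Grhl1 alone, the regulator with 2 detected probes. The log2 ratio of Ovol1 lay between 3.21 and 3.78, that of Grhl3 between 0.70 and 1.38, and that of Grhl1 between 0.27 and 0.46. Gata3 lay between -0.58 and -0.48 and Trp63 between -0.19 and -0.11. Grhl3 is the member whose side of the 2-fold line changed. The settings share the same 2 arrays, so their likeness is not a replicate check.

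**Figure D3:**
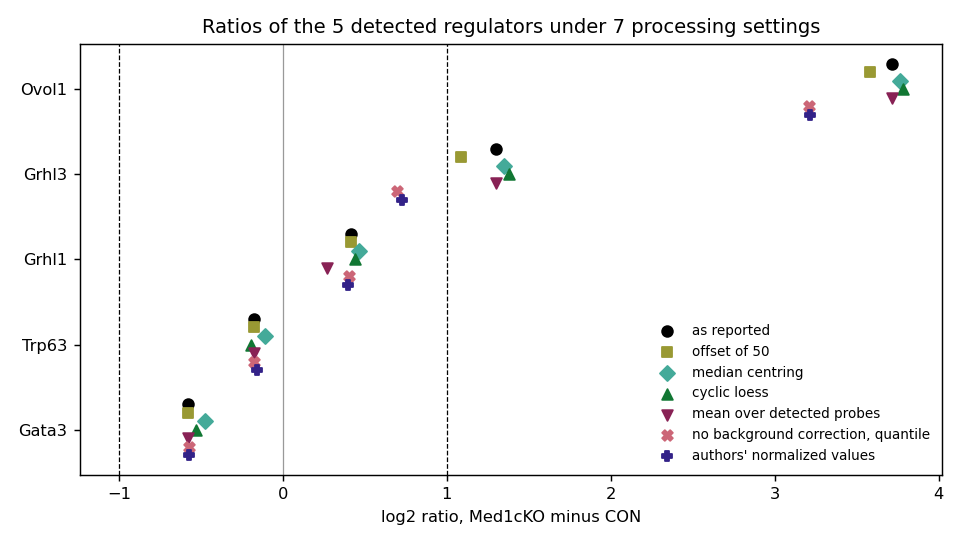
Log2 ratio (Med1cKO minus CON) of the 5 detected regulators as reported and under 6 alternative settings that could change a member's value, 1 symbol per setting. Dashed lines mark 2-fold. Ovol1 stays between 3.21 and 3.78, and Grhl3 falls inside the lines, to 0.70 and 0.73, in the 2 settings without background correction.

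The closest relatives of Ovol1 and the Grhl genes did not move with them. Ovol2, the paralog that Ovol1 represses in mouse epidermis, was lower in the Med1cKO pool at each of its 3 probes. Its intensities were 947 in CON and 623 in Med1cKO at the brightest probe, 707 and 435 at the next, and 473 and 418 at the dimmest. The log2 ratios of these probes were -0.67, -0.88 and -0.17, so the Ovol2 difference had the opposite sign to that of Ovol1 and remained under 2-fold. The 3 probes were negative under each scaling tried, with -0.17 to -0.11 at the dimmest. Grhl2, the third Grainyhead-like factor and a regulator of epithelial junctions, had intensities of 3032 and 2713 (log2 ratio -0.10). Trp73, a p63 relative, was near the detection limit in both pools (238 in CON, not detected, and 225 in Med1cKO). Among other relatives, Gata6, a factor of the upper hair follicle and sebaceous duct, had intensities of 604 and 949 and was 1.85-fold higher, in the opposite direction to Gata3. Prdm4 had a log2 ratio of 0.07. Of 11 relatives with a probe, 5 were detected, none differed 2-fold in either direction, and the median log2 ratio was -0.08. By the same measure 3.95% of all detected genes were higher and 1.81% lower. Gata1, Gata2, Gata4, Gata5, Prdm8 and Prdm16 were not detected, and Trp53 and Ovol3 were not analysed here.

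Several other transcription factors of epidermal differentiation were higher in the pool with high Ovol1. Of 31 such factors with a probe, 23 were detected, 5 were at least 2-fold higher in Med1cKO and none lower. The shares over all detected genes were 3.95% higher and 1.81% lower. The median log2 ratio of the factors was 0.29, or 0.21 over the 20 detected on both arrays. Of the 23, 16 had a log2 ratio above 0 and 7 below. Dlx3, a homeobox factor of the granular layer and hair, had intensities of 341 in CON and 753 in Med1cKO (3.32-fold higher). Hes1, a Notch target that maintains spinous cells, went from 1556 to 3867 (2.76-fold). Myc, which Ovol1 represses in mouse keratinocytes, had 272 in CON and 426 in Med1cKO (2.41-fold, or 1.62-fold without background correction), while its other probe was not detected. The 5 also included Zfp750, a p63 target that promotes terminal differentiation (1930 and 3905, 2.21-fold), and Barx2 (684 and 1191, 2.06-fold), both named after their values were seen. Tfap2a, an early epidermal factor also named afterwards, lay close to 2-fold at each of 3 probes (log2 ratios 0.99, 0.92 and 1.18). Elf3 and Runx1 were detected in Med1cKO only and were at least 1.33-fold and 1.37-fold higher on the background-corrected scale, to which all bounds written as at least N-fold apply. Another Elf3 probe was also detected in Med1cKO only, dimly (intensity 220), and its remaining probe was not detected on either array. Klf4, a barrier factor also named after its values were seen, had 3 probes with log2 ratios of 0.06, 0.61 and 0.32. Among the factors below 0 were Tfap2b and Satb1, both named afterwards. Tfap2b had a log2 ratio of -0.61 at its brightest probe and 0.10 and 0.01 at its other detected probes. Satb1 had a log2 ratio of -0.40. Without background correction 3 of the factors were at least 2-fold higher, beside 155 of all 7954 detected genes.

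By their median, genes regulated by p63 in basal keratinocytes lay slightly lower in the Med1cKO pool. Of 28 with a probe, 26 were detected, 18 of these had a log2 ratio below 0, and their median was -0.22, beside -0.04 for all detected genes, of which 4321 of 7955 were below 0. Of the 26, 1 was at least 2-fold higher and none at least 2-fold lower, beside 3.95% and 1.81% of all detected genes. Igfbp3, a growth factor binding protein repressed by p63, read 4084 in CON against 2089 in Med1cKO (log2 ratio -0.97). The Notch ligand Jag2 had 1421 and 798 (-0.89), and the desmosomal cadherin Dsc3 had 1381 and 792 (-0.86). The cell cycle inhibitor Cdkn1a, which p63 represses, was the member at least 2-fold higher, with intensities of 4179 and 8265 (2.03-fold, or 1.99-fold without background correction). Its 2 other probes were 2.12-fold and 2.26-fold higher. Fgfr2, a growth factor receptor induced by p63 and named after its values were seen, was lower at each of 3 probes, with log2 ratios of -0.76 at the brightest, -1.45 and -0.72. Its probes thus differed on whether the gap reached 2-fold. In the other direction, 8 of the 26 had a log2 ratio above 0. Among these were the desmosomal cadherin Dsg3 (591 and 888, 0.82) and Sfn (6248 and 9784 at its brighter probe, 0.64). Both were named after their values were seen. Tslp, an epithelial cytokine, was detected in Med1cKO only, at least 1.52-fold higher on the background-corrected scale and 1.27-fold without that correction. Several members of this list are higher and others lower when p63 acts, so its median has no single reading in terms of p63.

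Among genes regulated by Grainyhead-like factors, Cldn4 and Tgm1 were at least 2-fold higher in the Med1cKO pool. Of 18 with a probe, 15 were detected, 2 were at least 2-fold higher, none was lower, and the median log2 ratio was 0.00. Over all detected genes, 3.95% were that much higher and 1.81% that much lower. Cldn4, a tight junction claudin activated by Grhl2, had intensities of 1188 in CON and 4705 in Med1cKO (4.604-fold higher, or 4.14-fold without background correction). Tgm1, the transglutaminase that crosslinks the cornified envelope and a target of Grhl3, had 293 and 514 (2.72-fold, or 1.82-fold without background correction). Rhov had 392 and 601 (log2 ratio 0.98) and the desmosomal gene Dsc1, 290 and 394 (0.90). Arhgef19, a Grhl3 target in planar cell polarity, went the other way, with 1580 and 1041 (-0.59). The Grhl3 targets Tgm1 and Arhgef19 thus differed in sign. Cdh1 (E-cadherin), named after its value was seen, had 4893 and 4492 (-0.08).

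The mesenchymal genes that Ovol and Grhl factors oppose were mostly not detected. Of 13 with a probe, 7 were not detected on either array, among them the repressors Zeb1, Zeb2, Twist1 and Twist2. Snai1, another such repressor, read 271 in CON against 239 in Med1cKO (log2 ratio -0.34). The median over the 6 detected was -0.12. Beside 3.95% higher and 1.81% lower among all detected genes, 1 of the 6 was at least 2-fold higher and none was lower. That gene was Vim (vimentin), detected in Med1cKO only, which read 234 in CON against 366 in Med1cKO. It was at least 2.62-fold higher on the background-corrected scale, but 1.62-fold higher without background correction, below the 2-fold threshold. Mmp2, a matrix protease, had 1410 and 2383 (log2 ratio 0.90), whereas Tgfbi, an extracellular matrix protein, had 21755 and 15769 (-0.47) and Tgfb2 276 and 235 (-0.46). The dimmer Tgfbi probe read 8044 in CON against 4174 in Med1cKO (-0.97). Vim is also made by fibroblasts, and 4 of 6 fibroblast markers were detected in Med1cKO and none in CON, with summed background-corrected levels of 86.6 in CON and 2754 in Med1cKO. Most of the Med1cKO sum came from Dcn (intensities 178 and 2297), and the CON sum holds only probes not detected there. In Med1cKO, Col1a1 read 456, Lum 294 and Col3a1 240. The part of fibroblasts in the Vim value was not tested.

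Structural genes of the upper layers were a mixture. Of 35 with a probe, 30 were detected, with a median log2 ratio of 0.07. In all detected genes 3.95% were higher by 2-fold or more in Med1cKO and 1.81% lower by as much. Of the 30, 8 were higher and 1 lower to that degree. The higher ones included the envelope precursors Sprr1a, which read 428 in CON against 1067 in Med1cKO (3.51-fold), Lce1c, with 1209 and 3280 (3.11-fold), and Lce1f, with 245 and 470 (3.65-fold, or 1.998-fold without background correction). Sprr1b and Tgm3 were detected in Med1cKO only, with differences of at least 14.8-fold and 2.68-fold on the background-corrected scale and smaller ones of 6.58-fold and 2.35-fold without that correction. The 8 also included the protease gene Asprv1 (2.18-fold), whereas Lce1m and Sprr2a1 had log2 ratios of -0.03 and -0.10. Sprr and Lce genes have close relatives that their probes may also bind. The member at least 2-fold lower, Krt2, lay on the threshold (log2 ratio -1.004). Ivl, the envelope protein involucrin, and Lor, loricrin, had log2 ratios of 0.33 and 0.06. Asprv1, Lce1m, Sprr2a1, Krt2, Ivl and Lor were named after their values were seen.

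**Figure D4:**
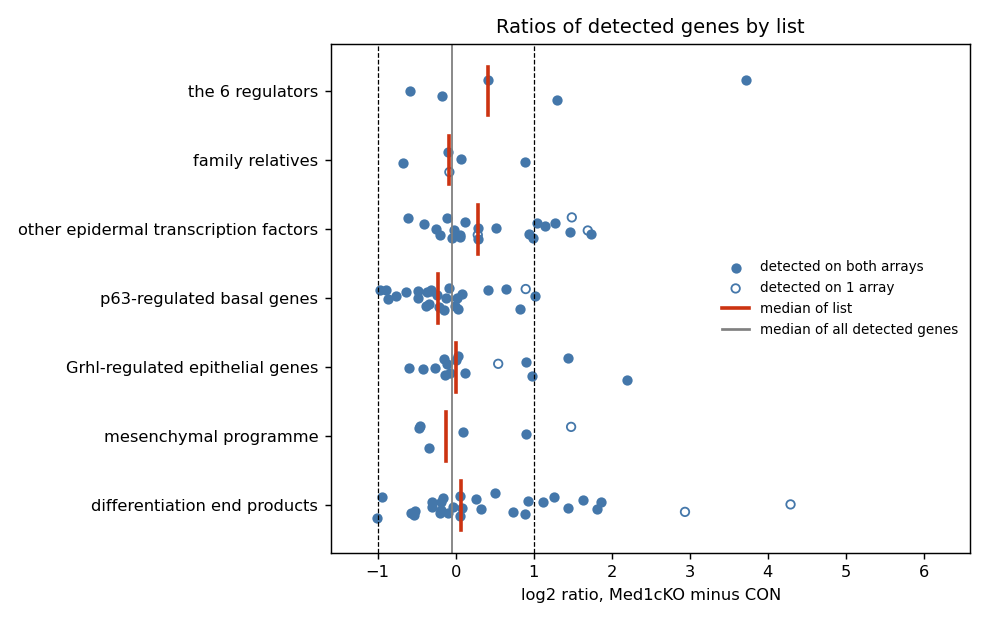
Log2 ratio (Med1cKO minus CON) of every detected gene in the regulators and the 6 related lists, 1 point per gene with random vertical scatter. Open points are genes detected on 1 array, red bars are list medians, the grey line is the median of all detected genes (-0.04) and dashed lines mark 2-fold. The 23 other transcription factors have a median of 0.29 and the 26 p63-regulated basal genes one of -0.22.

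Markers of other cells also differed between the pools, and in bulk RNA more cells of a type and more RNA per cell cannot be told apart. T cell markers bear on Gata3 and Prdm1. Of 6 with a probe, 4 were detected in Med1cKO and 3 in CON, and their summed background-corrected level was 6207 in CON and 10131 in Med1cKO, mostly from Thy1 (intensities 5975 and 9092). Cd3g had 451 and 927 (2.74-fold higher), and Cd3d had 244 and 358 (2.37-fold, or 1.51-fold without background correction). Cd3e was detected in Med1cKO only, at least 3.49-fold higher, or 1.90-fold without background correction. Of the 4 detected, these 3 were at least 2-fold higher and none was lower, beside 3.95% and 1.81% of all detected genes. Ptprc and Cd7 were not detected. No B or plasma cell marker of 4 was detected. Upper follicle and sebaceous markers had summed levels of 12963 in CON and 21942 in Med1cKO, with 5 of 9 detected in CON and 7 in Med1cKO. Most of that gap came from Krt79 (intensities 3976 and 10981), and 6 of the 7 detected had a log2 ratio above 0. Scd1 was almost level (0.01), and Lrig1 was lower (-0.36). Langerhans cell and macrophage markers summed to 1254 and 2671 (3 of 5 detected in each pool), and hair matrix and inner root sheath markers to 186 and 541 (0 of 7 detected in CON and 5 in Med1cKO). Those 5 hair markers were dim, with Med1cKO intensities from 240 (Krt27) to 301 (Krt71). Over all 7955 detected genes, 528 were detected in Med1cKO only and 245 in CON only. Bulge markers summed to 1172 and 1690, with 3 of 5 detected in CON and 4 in Med1cKO. Of those 4, 2 had a log2 ratio above 0, Sox9 (intensities 333 and 752) and Lgr5 (172, not detected, and 273). The other 2 were below 0, Cd34 (321 and 279, -0.31) and Nfatc1 (-0.02). Basal markers summed to 137671 and 120305 and suprabasal markers to 72192 and 71650. Log2 ratios were below 0 for 5 of 6 basal and 3 of 6 suprabasal markers. A complete sort would remove bulge cells, which carry CD34, and cells without a6, such as fibroblasts. The part of these differences in the Ovol1, Grhl3 and Gata3 values was not tested. Of 5 endothelial and 5 melanocyte markers 1 each was detected, dimly and in Med1cKO only (Egfl7 at 248 and Dct at 226). No Merkel cell or skeletal muscle marker (4 each) was detected, and the erythroid gene Hba-a1 had intensities of 492 and 2231.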

How the data were processed

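Probe intensities and detection p-values were deposited for 1 CON and 1 Med1cKO array. Per the file headers the intensity values are non-normalized, and the values show no background subtraction. The detection p-value beside each deposited intensity compares the probe with negative control beads. The submitters' processing notes name GenomeStudio 2011.1. Per the labels' protocols, biotin-labelled cDNA was read with Cy3-streptavidin. The authors also deposited normalized intensity values (method not given in the sources used here), which are linear, uncentred (medians of 198.4 for CON and 198.7 for Med1cKO) and served as an alternative. No bead-level error is used here, and precision is limited by the number of arrays.

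Intensities were processed with neqc of limma 3.58.1 in R 4.3.3 (normal plus exponential background correction from the detection p-values, offset of 16, quantile normalization, log2). The inferred background was 168.0 intensity units (SD 21.9) on CON and 163.0 (SD 17.0) on Med1cKO. Later steps ran in Python 3.11.15 (matplotlib 3.10.9, numpy 2.4.6, pandas 2.3.3), and the normalization was tested on simulated data. Known folds were set there in brighter probes only, so dim probes such as that of Grhl3 were not covered. Of 25697 probes, 23978 had 1 symbol, none had several and 1719 had none, and 23962 were matched by Entrez ID to RefSeq (GRCm38.p6). A gene is represented by its probe of highest mean level, detected at p below 0.01 on at least 1 array. Where 1 array alone detected it, "at least N-fold" compares the bright value with the higher of the dim value and the lowest detected level of the dim array (log2 6.41 for CON, 6.20 for Med1cKO). Robust SDs are scaled median absolute deviations in 10 level bins. List medians use measured ratios, and summed marker levels are linear levels minus the offset, over the probe representing each gene.

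The members, lists, markers and rules were chosen with earlier results of these data known. Named genes are the members, Ovol2, Grhl2, Trp53, Trp73, Med1, up to 5 detected genes per list with the largest absolute ratios, and the 3 genes nearest in ratio to Ovol1. Other names are marked as chosen after their values were seen, except cell type markers. Alternatives were 8 planned and 1 added after seeing the data.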

Additional observations from a re-analysis of the deposited data

How the results depend on the processing

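No paired analysis was possible because each group has 1 array. Ovol1, Grhl1, Trp63 and Gata3 kept their direction and their side of the 2-fold threshold in the 8 planned settings, of which a detection p below 0.05 and a 1.5-fold threshold leave the ratios as they are. A mean over detected probes can change the ratio of Grhl1 alone among the members. Grhl3 dropped below 2-fold without background correction (log2 ratio 0.70) and with the authors' normalized values (0.73), where background is retained on both arrays and ratios of dim probes shrink. Counts of all genes, 314 higher and 144 lower as reported, were 155 and 44 without background correction and 163 and 46 with the authors' values. An offset of 50 gave 95 lower, and a 1.5-fold threshold gave 736 and 659, as a lower threshold must. Without background correction the higher genes numbered 3 for other epidermal transcription factors, 0 for p63-regulated genes, 1 for Grhl-regulated genes, 0 for mesenchymal genes and 5 for differentiation end products. With the authors' values they numbered 3, 1, 1 and 0 for the same lists without the end products. The lower end product, Krt2, dropped to 0 genes in both of these settings, with cyclic loess, with median centring and with an offset of 50, and median centring moved that list's median to 0.18. At 1.5-fold, family relatives had 1 higher and 1 lower gene, other factors 1 lower, p63-regulated genes 4 higher and 5 lower, Grhl-regulated genes 4 higher and 1 lower, mesenchymal genes 2 higher and end products 2 lower. With genes detected on both arrays only, a setting added after seeing the data, the mesenchymal list had 0 higher genes and a median of -0.34. The other 186 values of lists, members and counts under these settings stayed within 1.5 times for counts, within 0.1 for medians, and on the same side of 2-fold for members. Signal close to background limits the folds of dim probes, among them Grhl3, and gives no fold for Prdm1.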
